A study of Mus musculus with 11 samples.

Results

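The 40 genes described here encode proteins that copy DNA, drive cells through the cycle and divide them, and they were taken by symbol from a table of 23420 mouse genes measured in heart RNA. All 40 were found in the table, and 36 of them had a mean of at least 10 normalized counts over the 11 libraries, the level at which 12976 genes of the table were tested. Ccnb1, Mybl2, Bub1 and Aurkb were below that mean and are given by their values without a test. The libraries came from mice in which Cd36, which encodes a receptor that takes long-chain fatty acids into cells, carries loxP sites, a strain that the labels give to every group. Control (2 libraries) is heart tissue for which no Cre is stated. EC KO (3) is the endothelial knockout made with Tie2-cre, a driver that is also known to act in many blood-forming cells. CM KO (3) is the cardiomyocyte knockout made with MHC-cre, and Total KO (3) is labelled a total knockout without a statement of how it was made. Neither age, sex nor diet is given, and no label says whether a library is 1 heart or a pool, so a p-value here weighs only the spread among the libraries, which may be technical. The design asks how endothelial Cd36 affects lipid and glucose metabolism, and the genes of cell division are a side of the same hearts that it does not address.

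A dividing cell passes through S phase, in which the MCM helicase, PCNA and the enzymes of nucleotide supply copy the genome, and then through G2 and mitosis, in which cyclins A and B with CDK1, the Aurora and Polo-like kinases and the spindle separate the copies. Transcription of the S phase genes is driven by E2F factors. That of the mitotic genes is held down in resting cells by the DREAM complex, which binds a promoter element called the CHR (cell cycle genes homology region), and is raised in G2 through the same element by B-MYB and FOXM1. In the adult mouse heart cardiomyocytes rarely divide, and most dividing cells are endothelial, fibroblast or immune cells. In RNA from whole tissue fewer cells of a type and less RNA per cell cannot be told apart.

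Reads per library ranged from 11157062 to 20105673 in 10 libraries, and EC KO replicate 1 had 2268403, so that 1 read there is worth 6.04 normalized counts against 0.648 to 1.27 elsewhere. Replicates of 1 group differed by more than counting noise (chi-square per degree of freedom from 2.87 to 54.1), and CM KO replicate 1 stood farthest from its own group, at 54.1 and 39.1. This ratio grows with depth, so pairs of unlike depth cannot be compared by it. Its lowest values, 2.87 and 4.66, belong to the pairs with EC KO replicate 1, and EC KO replicates 2 and 3 gave 10.6. Cd36 itself stood at 69.9% of the Control mean in the EC KO group, at 49.0% with CM KO and at 53.0% with Total KO. The labels do not name the deleted exons and the count pools all exons of the gene, so a shortened transcript cannot be told from a full one, and the groups are called here by their labels. Cardiomyocyte markers were high in every library (Myh6 from 212624 to 553308 normalized counts).

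The promoters of the mitotic members differ in sequence from those of the replication members, which is why a few are printed here before the values. The RefSeq table (GRCm38.p6) gives 250 bases before to 50 bases after the start of transcription, and it held 36 promoters of 34 of the 40 members. The search was made on both strands for the CHR core TTTGAA, for the CCAAT box CCAAT, which lies near many CHR elements, and for the E2F forms TTTCCCGC, TTTCGCGC, TTTGCCGC and TTTGGCGC. The CHR core was found in 18 of 26 promoters of members outside DNA replication (69.2%), in 1 of 10 promoters of replication members (10%) and in 17.9% of all 32817 promoters. An E2F form stood in 4 of 10 replication promoters (40%), in 1 of 26 others (3.85%) and in 2.26% of all promoters. The CCAAT box was frequent in both sets, in 9 of 10 and in 20 of 26 against 37.4% of all promoters. A match of letters is a description and not a binding site. Iqgap3, Ckap2l and Top2a are shown because they had the 3 lowest p between Total KO and CM KO, and Mcm6 and Rrm2 because they were the replication members that passed a test. Capitals mark the CHR core (TTTGAA or TTCAAA), the CCAAT box (CCAAT or ATTGG) and, in Mcm6, the E2F forms (TTTGGCGC, and GCGCGAAA for TTTCGCGC on the other strand, which overlap at 1 place).
Iqgap3 (chr3:88081801-88082100, plus strand): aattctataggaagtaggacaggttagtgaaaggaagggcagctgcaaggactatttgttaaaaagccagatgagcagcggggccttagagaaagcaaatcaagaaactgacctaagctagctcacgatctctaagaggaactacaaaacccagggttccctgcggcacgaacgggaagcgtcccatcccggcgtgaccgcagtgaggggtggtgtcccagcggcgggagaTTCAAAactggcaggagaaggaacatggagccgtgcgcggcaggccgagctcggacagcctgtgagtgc
Ckap2l (chr2:129297163-129297462, minus strand): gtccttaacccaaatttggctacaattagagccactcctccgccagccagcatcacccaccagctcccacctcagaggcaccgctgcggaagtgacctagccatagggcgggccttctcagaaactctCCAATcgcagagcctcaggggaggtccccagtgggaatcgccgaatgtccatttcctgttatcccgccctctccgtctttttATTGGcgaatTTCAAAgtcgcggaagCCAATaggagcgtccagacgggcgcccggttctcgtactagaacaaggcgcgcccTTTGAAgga
Top2a (chr11:99024140-99024439, minus strand): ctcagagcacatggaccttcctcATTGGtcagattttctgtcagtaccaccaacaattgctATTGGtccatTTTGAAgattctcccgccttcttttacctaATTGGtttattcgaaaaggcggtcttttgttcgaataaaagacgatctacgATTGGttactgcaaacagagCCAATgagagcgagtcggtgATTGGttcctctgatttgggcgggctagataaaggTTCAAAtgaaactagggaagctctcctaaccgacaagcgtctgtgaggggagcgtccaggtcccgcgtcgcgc
Mcm6 (chr1:128359656-128359955, minus strand): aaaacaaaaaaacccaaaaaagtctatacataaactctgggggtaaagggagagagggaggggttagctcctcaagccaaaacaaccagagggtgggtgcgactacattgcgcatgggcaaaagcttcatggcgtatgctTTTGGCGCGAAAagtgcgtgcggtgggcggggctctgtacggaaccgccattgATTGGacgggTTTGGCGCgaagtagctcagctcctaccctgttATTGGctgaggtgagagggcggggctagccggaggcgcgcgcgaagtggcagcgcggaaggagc
Rrm2 (chr12:24708004-24708303, plus strand): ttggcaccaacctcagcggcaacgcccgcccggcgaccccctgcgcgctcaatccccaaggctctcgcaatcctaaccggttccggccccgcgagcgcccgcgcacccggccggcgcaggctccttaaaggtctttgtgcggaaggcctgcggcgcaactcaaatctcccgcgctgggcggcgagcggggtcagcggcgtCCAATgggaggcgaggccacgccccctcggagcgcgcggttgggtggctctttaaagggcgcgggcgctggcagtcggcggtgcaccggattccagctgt

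Summed over genes, the mitotic members were lowest in Total KO and highest in EC KO and in 1 CM KO library. The summed replication members differed less between groups, although Rrm2 and Mcm6 among them passed a test. The 29 members outside DNA replication, leaving out Cenpf, summed to 705 and 575 normalized counts in Control. The same sum was 1088, 1055 and 1037 for EC KO, 1470, 637 and 595 for CM KO, and 302, 424 and 327 for Total KO. Thus the 3 EC KO libraries lay above both Control libraries, the 3 Total KO libraries lay below all others, and CM KO replicates 2 and 3 lay in the range of Control. The EC KO group averaged 1060 ± 25.6 (SD, n = 3), 166% of the Control mean, and Total KO 351 ± 64.4 (SD, n = 3), 54.8% of it. Exact Poisson 95% intervals, which cover counting error only, ran from 935 to 1259 in EC KO replicate 1 (180 reads), from 535 to 617 in the lower Control library and from 387 to 463 in the highest Total KO library. Cenpf was left out after its values were seen because it alone held up to 393 normalized counts. Its mean was highest in Control, unlike that of the other tested mitotic members. Including it gave EC KO, CM KO and Total KO 134.5%, 112.4% and 58.15% of the Control mean, against 166%, 141% and 54.8% without it. With Cenpf included the sum was 1097 and 779.8 in Control and ranged from 1224 to 1311 for EC KO, from 781 to 1575 for CM KO and from 505 to 583 for Total KO, whose 3 libraries were again the lowest of 11.

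**Figure D1:**
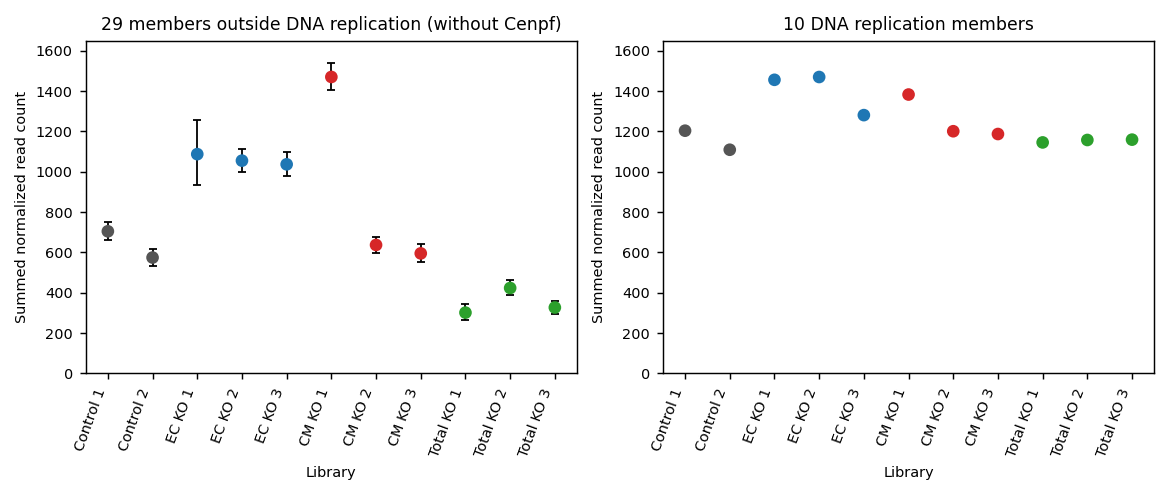
Left, the summed normalized read count of 29 members outside DNA replication (without Cenpf) in each of the 11 libraries, with exact Poisson 95% intervals. Right, the sum of the 10 DNA replication members. On the left the Total KO libraries lie between 302 and 424 and the EC KO libraries between 1037 and 1088, and on the right all libraries lie between 1109 and 1470.

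The sum of the 10 replication members was 1204 and 1109 for Control, 1456, 1470 and 1281 for EC KO, 1383, 1201 and 1187 for CM KO, and 1146, 1158 and 1160 for Total KO. All 3 EC KO libraries lay above both Control libraries here too, by a smaller ratio (121% of the Control mean), and Total KO averaged 99.8% of Control. Of the 36 tested members, 27 had their lowest group mean in Total KO and 25 their highest in EC KO. For 24 of the 26 tested members outside replication Total KO was the lowest group, against 3 of the 10 replication members.

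**Figure D2:**
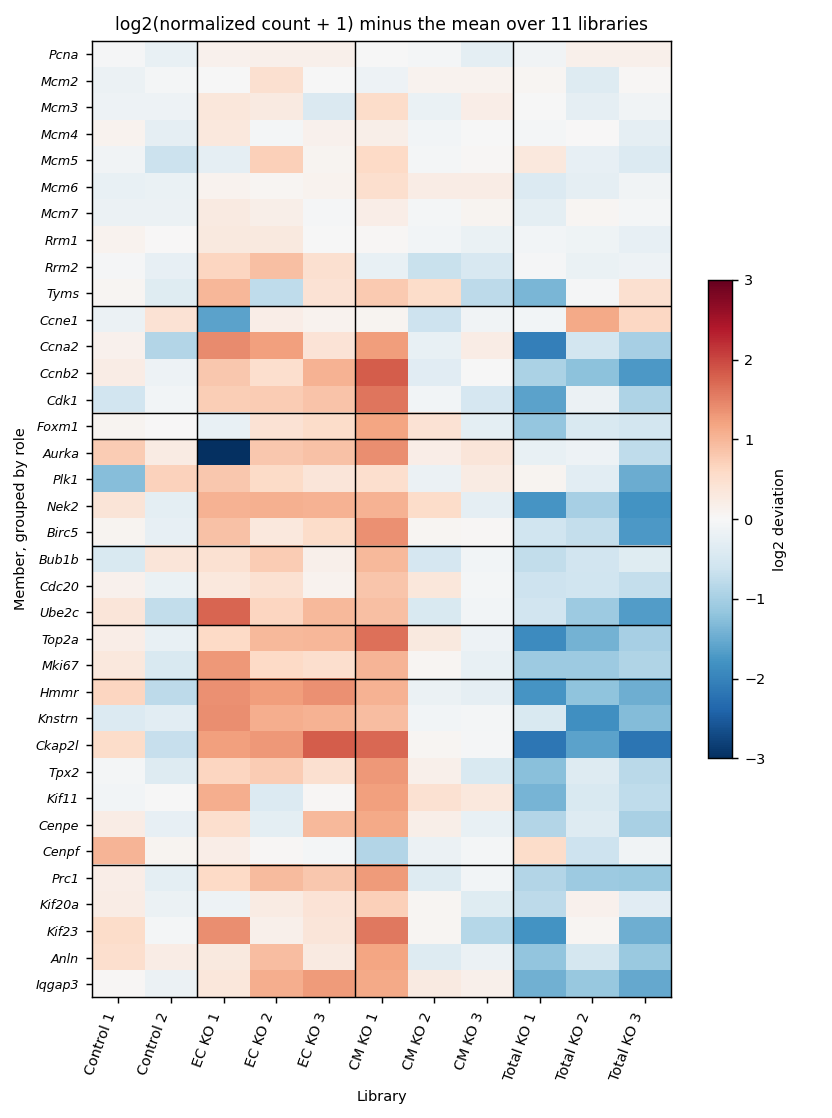
Deviation of log2(normalized count + 1) from the mean over 11 libraries for the 36 tested members (rows, grouped by role) in each library (columns, grouped by label), on a colour scale from -3 (blue) to 3 (red). The 3 Total KO columns are mostly blue below the replication rows, CM KO replicate 1 is red in most rows, and the darkest cell is Aurka in EC KO replicate 1, listed at 0 there and beyond the end of the scale.

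Between Total KO and CM KO, 14 of the 36 tested members were called lower in Total KO and none higher (limma on log2 of the value plus 1, adjusted p under 0.05 over all genes tested). Over all 12976 genes 8.20% were called lower and 8.20% higher in this comparison. The 14 were Mcm6 of DNA replication, the cyclins Ccna2 and Ccnb2, the kinase Nek2, the survivin gene Birc5, the APC activator Cdc20, the chromosome proteins Top2a and Mki67, the spindle genes Hmmr, Knstrn, Ckap2l and Kif11, and the cytokinesis genes Prc1 and Iqgap3. The median log2 difference over the 36 members was -1.12, beside -0.0052 over all genes, and it was -0.16 over the 10 replication members and -1.27 over the other 26. Without CM KO replicate 1 the median was -0.66 and 4 members were called, and without Total KO replicate 1, 2 or 3 there were 7, 7 and 6. Iqgap3, Ckap2l, Top2a and Nek2 passed with any 1 of the 11 libraries left out, and were the 4 called without CM KO replicate 1.

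The comparison of Total KO with EC KO had 5 called genes in the whole table, and Ckap2l and Iqgap3 were among them, both lower in Total KO (limma, 0.0385% of all genes called lower). The other 3 were Fkbp5, Spock2 and Trp53inp1. At an unadjusted p under 0.05 there were 25 of 36 members (69.4%) beside 10.4% of all genes, and the median log2 difference was -1.13 beside 0.014 over all genes. The replication members had a median of -0.26 and the other 26 of -1.64. In 25 of 36 tested members every Total KO library was below every EC KO library, as in 8.95% of all genes. Both calls are sensitive to single libraries: leaving out either Control library, EC KO replicate 2 or 3, or any Total KO replicate ended the call of Ckap2l and of Iqgap3, and the number of members called then ranged from 0 to 1. Without EC KO replicate 1, Iqgap3 was called and Ckap2l was not. Leaving out CM KO replicate 1 gave 9 called members, edgeR gave 1 and DESeq2 gave 10.

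No member was called between EC KO and Control by limma, edgeR or DESeq2 (0 in each), where limma called 0.316% of all genes. An unadjusted p under 0.05 was reached by 8 of 36 members (22.2%) beside 10.5% of all genes. The 8 were Rrm2, Knstrn, Iqgap3, Ckap2l, Hmmr, Ccna2, Ube2c and Mki67, each with the higher values in EC KO. The median log2 difference was 0.46 beside -0.012 over all genes, with 33 of 36 members above 0. In 19 of the 36 every EC KO library was above both Control libraries, as in 12% of all genes. Without the replicates 1 of the knockout groups, the count was 23 of 36 beside 18.8% of all genes. The 3 members of lowest p were Rrm2 with 0.81 ± 0.21 (SE, adjusted p = 0.164), Knstrn with 1.54 ± 0.44 (adjusted p = 0.211) and Iqgap3 with 0.97 ± 0.35 (adjusted p = 0.358), all by limma.

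Total KO against Control likewise gave 0 called members by limma, edgeR and DESeq2, where limma called 0.0848% of all genes. An unadjusted p under 0.05 by limma belonged to 9 of 36 members (25.0%) and to 8.11% of all genes. Those 9 were Iqgap3, Ckap2l, Nek2, Top2a, Anln, Mki67, Hmmr, Prc1 and Ccnb2, all lower in Total KO. The median log2 difference was -0.68 beside 0.00035 over all genes, 0.016 over the replication members and -0.86 over the others. Every Total KO library was below both Control libraries for 18 of 36 members, as in 12.8% of all genes. By limma, the lowest p belonged to Iqgap3 (-1.30 ± 0.35, adjusted p = 0.284), Ckap2l (-1.93 ± 0.55, adjusted p = 0.331) and Nek2 (-1.56 ± 0.47, adjusted p = 0.360).

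CM KO against Control gave 0 called members by limma, although 5.70% of all genes were called (3.29% higher and 2.40% lower). Only 2 of 36 members (5.56%) had an unadjusted p under 0.05, a smaller share than the 21.0% of all genes: Mcm6 with a log2 difference of 0.53 ± 0.15 (limma, adjusted p = 0.0593) and Cenpf with -0.92 ± 0.34 (limma, adjusted p = 0.139). Mcm7 came next, with 0.27 ± 0.16 (limma, adjusted p = 0.365). Mcm6 was called by edgeR, by DESeq2 and after scaling to library totals, and Cenpf by DESeq2. The median log2 difference was 0.34 beside -0.0042 over all genes and was 0.028 without CM KO replicate 1. That library was the highest of the 3 in its group for 34 of 36 tested members and the highest of all 11 for 17.

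EC KO against CM KO gave 1 called member, Rrm2, higher in EC KO by 1.12 ± 0.19 (SE) on the log2 scale (limma, adjusted p = 0.00241), where 8.72% of all genes were called higher and 10.4% lower. It was called with each of the 11 libraries left out and under each of the 12 other alternatives. Every EC KO library was above every CM KO library for 5 members (Pcna, Rrm2, Hmmr, Knstrn and Cenpf), 13.9% of the 36 beside 19.1% of all genes. Hmmr (1.13 ± 0.47, adjusted p = 0.110) and Rrm1 (0.28 ± 0.12, adjusted p = 0.111) had the next lowest p by limma. Over all 4 groups at once, the F test of limma called 13 members (14.3% of all genes called).

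**Figure D3:**
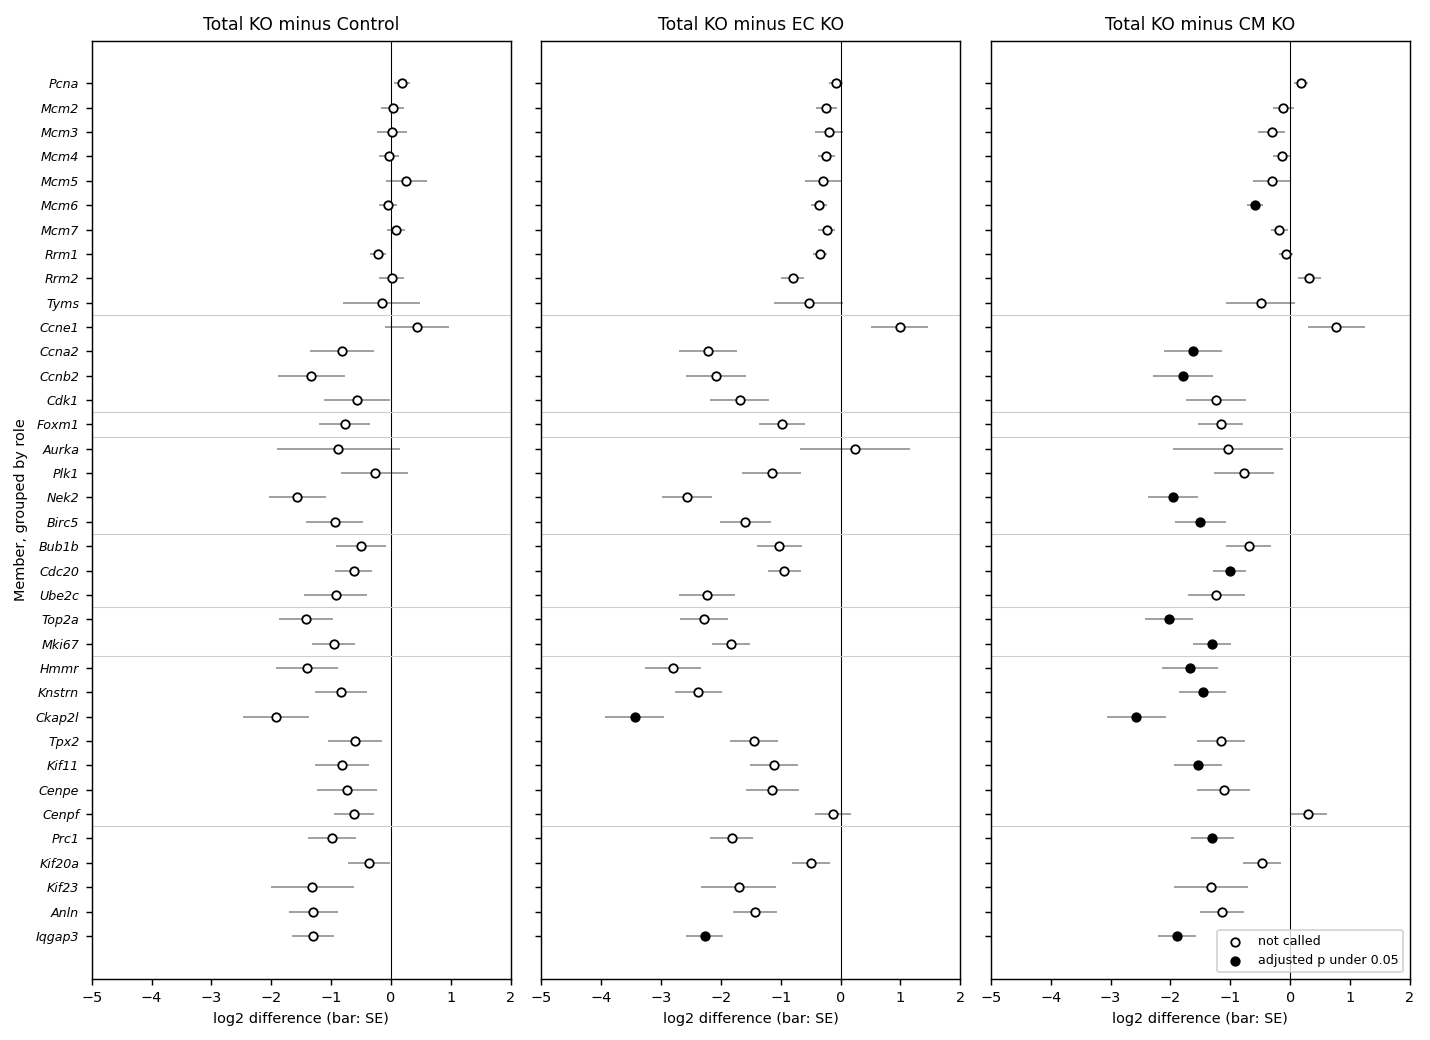
Log2 differences of Total KO from Control, EC KO and CM KO for the 36 tested members, grouped by role, with SE bars from limma. Filled points have an adjusted p under 0.05: none against Control, Iqgap3 and Ckap2l against EC KO, and 14 members against CM KO, while the 10 replication members at the top lie within 1 of 0.

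The 6 comparisons share libraries (the 3 Total KO libraries enter 3 of them), so their values are set side by side and are not independent of each other. For 15 members (Ccnb2, Foxm1, Nek2, Birc5, Cdc20, Top2a, Mki67, Hmmr, Knstrn, Ckap2l, Kif11, Cenpe, Prc1, Anln and Iqgap3) every Total KO library was below all 8 other libraries, as in 1.52% of all genes. For 19 members Total KO did not overlap CM KO and lay below it, as in 19.3% of all genes. Without the replicates 1 of the 3 knockout groups, 17 members had both Total KO libraries below the other 6, beside 5.07% of all genes. These counts were chosen after the values were seen.

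Among the DNA replication members, the helicase genes Mcm2 to Mcm7 encode the ring that unwinds the duplex. Mcm6 (chr1:128331590-128359664, minus strand, in the mm10 build) read 105 and 107 in Control, 133, 129 and 132 in the EC KO libraries, 176, 144 and 144 in the CM KO libraries and 91.7, 102 and 113 in the Total KO libraries normalized counts. Its CM KO libraries were the 3 highest and its Total KO libraries overlapped Control. Mcm6 was lower in Total KO than in CM KO by a log2 difference of -0.59 ± 0.13 (SE, limma, adjusted p = 0.0137), and this call ended without CM KO replicate 1 or without Total KO replicate 1. The other 5 helicase genes had no call in any comparison of 2 groups, with group means from 28.7 (Mcm5 in Control) to 176 (Mcm4 in EC KO). Mcm7 averaged 119 ± 0.261 in Control, 149.6 ± 15.5 in EC KO hearts, 144 ± 12.9 in CM KO hearts and 127 ± 15.5 in Total KO hearts, and its exons overlap those of Ap4m1 on the opposite strand by 321 bases. Since the strand setting of the counting is not stated, reads of the overlap cannot be told apart. Of the 40 members, 10 share exon bases with a gene on the opposite strand and 3 with one on the same strand. Ccna2 shares 510 bases with Exosc9 and Cdc20 53 with Elovl1, both on the opposite strand. Foxm1 shares 144 with Tex52 on its own strand.

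Rrm2 encodes the small subunit of ribonucleotide reductase, the enzyme that makes deoxyribonucleotides, and is the subunit whose level follows S phase. Rrm2 (chr12:24708241-24714146, plus strand) read 52.1 and 45.5 in Control, 84.6, 101 and 75.2 in the EC KO libraries, 46.3, 33.7 and 38.4 in the CM KO libraries and 52.2, 46.9 and 48.4 in the Total KO libraries normalized counts. The EC KO libraries were the 3 highest of 11, and the CM KO libraries included the 2 lowest. Rrm1, the large subunit, averaged 293 ± 13.5 in Control, 321 ± 38.9 in EC KO hearts, 263 ± 21.7 in CM KO hearts and 251 ± 13.9 in Total KO hearts. Pcna, the sliding clamp of DNA polymerase, averaged 194 ± 18.6 in Control, 232 ± 1.98 in EC KO hearts, 195 ± 20.1 in CM KO hearts and 221 ± 20.7 in Total KO hearts. Tyms, which makes thymidylate, averaged between 13.4 ± 3.08 in Control and 19.6 ± 10.9 in EC KO and overlapped in all groups.

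Among the cyclins, Ccna2 encodes cyclin A, which acts in S phase and G2. Ccna2 (chr3:36564865-36572150, minus strand) read 26.4 and 12.7 in Control, 66.5, 57.7 and 32.7 in the EC KO libraries, 59.4, 20.7 and 28.6 in the CM KO libraries and 5.09, 16.2 and 11.7 in the Total KO libraries. Total KO was lower than CM KO by -1.62 ± 0.48 (log2, SE, limma, adjusted p = 0.0365), and in Control replicate 2 the level was within the Total KO range. Ccnb2, a cyclin B that activates CDK1 at the entry to mitosis (chr9:70407692-70421547, minus strand), read 15.5 and 11.9 in Control, 24.2, 19.2 and 28.3 in the EC KO libraries, 49.4, 10.4 and 13.1 in the CM KO libraries and 6.36, 5.12 and 3.34 in the Total KO libraries. Its 3 Total KO libraries rest on 5, 6 and 4 reads and lay below all others, with -1.79 ± 0.50 against CM KO (limma, adjusted p = 0.0304). CM KO replicate 1 was the highest library for Ccnb2, at 49.4 against 10.4 and 13.1 in its own group.

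Cdk1, the kinase that these cyclins activate, averaged 17.1 ± 4.34 in Control, 37.6 ± 1.90 in EC KO hearts, 34.0 ± 28.8 in CM KO hearts and 11.99 ± 6.27 in Total KO hearts. CM KO replicate 1 alone read 67.1 there, against 20.1 and 14.7 in the other CM KO libraries. Ccne1 encodes cyclin E, which acts at the entry to S phase, and it went another way, with 17.9 and 27.6 in Control, 6.04, 23.4 and 22.1 in the EC KO libraries, 21.6, 13.0 and 18.8 in the CM KO libraries and 19.1, 46.0 and 31.7 in the Total KO libraries normalized counts. Its highest libraries were 2 of Total KO, and no comparison called it. Ccnb1, the other cyclin B, was near the limit of detection at 0 to 6.94 normalized counts, and was listed at 0 in 4 libraries, 2 of them Total KO.

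Foxm1 and Mybl2 encode the transcription factors FOXM1 and B-MYB that raise mitotic genes. Foxm1 read 22.5 and 21.6 in Control, 18.1, 29.3 and 31.8 in the EC KO libraries, 49.4, 29.1 and 17.2 in the CM KO libraries and 8.91, 15.3 and 14.2 in the Total KO libraries. All 3 Total KO libraries were below the other 8, but the comparison with CM KO did not pass (-1.16 ± 0.38, limma, adjusted p = 0.0558). Mybl2 ranged from 0 to 5.84 normalized counts with no group set apart.

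The mitotic kinases were led by Nek2, a kinase of centrosome separation (chr1:191821444-191833050, plus strand). Nek2 read 14.8 and 8.95 in Control, 24.2, 24.3 and 23.9 in the EC KO libraries, 23.9, 16.8 and 9.0 in the CM KO libraries and 2.55, 5.12 and 2.50 in the Total KO libraries normalized counts. All Total KO values were below those of the other groups, and all EC KO values were above them but for CM KO replicate 1, which reached 23.9. The EC KO replicate 1 value rests on 4 reads and those of Total KO on 2, 6 and 3. Total KO was lower than CM KO by -1.96 ± 0.42 (log2, SE, limma, adjusted p = 0.0106), and against EC KO the difference of -2.57 ± 0.42 missed the threshold (limma, adjusted p = 0.0619).

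Birc5 encodes survivin, a member of the chromosomal passenger complex that carries Aurora B (chr11:117849251-117855743, plus strand). It read 17.1 and 13.4 in Control, 30.2, 20.1 and 23.9 in the EC KO libraries, 43.2, 16.8 and 16.4 in the CM KO libraries and 10.2, 9.38 and 4.17 in the Total KO libraries. Total KO lay below the other 8 libraries, with -1.50 ± 0.43 against CM KO (limma, adjusted p = 0.0319). Aurka, the Aurora kinase of the spindle poles, averaged 15.7 ± 4.23 in Control, 13.2 ± 11.4 in EC KO hearts, 18.5 ± 9.39 in CM KO hearts and 8.04 ± 1.92 in Total KO hearts. Its EC KO mean includes a 0 in replicate 1, where 3 reads would be worth 18.1 normalized counts. Plk1, the Polo-like kinase of mitotic entry, averaged 20.7 ± 18.2 in Control, 31.2 ± 4.87 in EC KO hearts, 24.0 ± 5.61 in CM KO hearts and 14.8 ± 7.58 in Total KO hearts, with the 2 Control libraries as far apart as 7.77 and 33.5. Aurkb, the kinase of the passenger complex, averaged from 3.26 ± 3.02 in Total KO to 13.8 ± 11.2 in CM KO and was not tested.

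Checkpoint and anaphase genes followed with smaller differences. Cdc20, the activator of the anaphase-promoting complex (chr4:118432901-118437352, minus strand), read 26.4 and 20.9 in Control, 30.2, 33.4 and 25.6 in the EC KO libraries, 43.2, 30.4 and 22.9 in the CM KO libraries and 15.3, 15.3 and 14.2 in the Total KO libraries. The 3 Total KO values were the 3 lowest of 11 and spread by less than 2 normalized counts, and the difference from CM KO was -1.01 ± 0.28 (limma, adjusted p = 0.0265). Ube2c, the ubiquitin-conjugating enzyme of the same complex, averaged 14.6 ± 7.96 in Control, 37.1 ± 15.3 in EC KO hearts, 18.6 ± 10.1 in CM KO hearts and 7.06 ± 3.01 in Total KO hearts. Its exons share 592 bases with Tnnc2 on the other strand, and no comparison of 2 groups called it by limma on all libraries with equal weights. DESeq2 and a weight per library called Ube2c lower in Total KO than in EC KO, and the weights also against CM KO. Bub1b and Bub1 encode kinases of the spindle checkpoint. Bub1b averaged 26.1 ± 10.5 in Control, 36.9 ± 8.01 in EC KO hearts, 31.7 ± 18.3 in CM KO hearts and 17.4 ± 2.40 in Total KO hearts, and Bub1, which was not tested, ranged from 0 to 2.50 in Total KO and from 3.89 to 16.2 elsewhere.

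Top2a encodes the topoisomerase that untangles sister chromatids, and Mki67 the Ki-67 protein that coats mitotic chromosomes and is widely used as a marker of cycling cells. Top2a (chr11:98992943-99024189, minus strand) read 41.2 and 30.6 in Control, 54.4, 71.1 and 72.5 in the EC KO libraries, 114, 44.0 and 31.9 in the CM KO libraries and 8.91, 12.8 and 17.5 in the Total KO libraries. The 3 Total KO libraries were the lowest and CM KO replicate 1 the highest, and the log2 difference from CM KO was -2.03 ± 0.40 (limma, adjusted p = 0.00730). Mki67 (chr7:135689784-135716361, minus strand) read 103 and 59.6 in Control, 205, 126 and 117 in the EC KO libraries, 167, 85.5 and 70.3 in the CM KO libraries and 38.2, 38.4 and 43.4 in the Total KO libraries and differed from CM KO by -1.31 ± 0.32 (limma, adjusted p = 0.0165). The EC KO replicate 1 value of Mki67, the highest of 11, rests on 34 reads. Total KO varied least for Mki67, from 38.2 to 43.4, and averaged below each Control library.

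The spindle and kinetochore members included Ckap2l, which had the largest differences of any called member, of Total KO from EC KO and from CM KO. As a role they did not lead, with a median log2 difference from CM KO of -1.46 against -1.67 for Top2a and Mki67. Ckap2l encodes a protein of the mitotic spindle (chr2:129268210-129297212, minus strand), and its promoter above carries the CHR core at 2 places. The promoter of Anln, which was not called, also had 2, and those of the called Nek2, Birc5 and Knstrn had 0. Ckap2l read 22.5 and 8.95 in Control, 36.3, 38.5 and 55.7 in the EC KO libraries, 51.7, 15.5 and 14.7 in the CM KO libraries and 2.55, 4.26 and 2.50 in the Total KO libraries normalized counts. All 3 Total KO values, from 2, 5 and 3 reads, were below the other 8, and the EC KO values and CM KO replicate 1 were above both Control values. The log2 difference was -3.44 ± 0.49 from EC KO (limma, adjusted p = 0.03) and -2.57 ± 0.49 from CM KO (limma, adjusted p = 0.00659). With a pseudocount of 5, which shrinks differences of low values, and by edgeR, Ckap2l was no longer called against EC KO.

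Hmmr, a microtubule-binding protein of the spindle (chr11:40701395-40733422, minus strand), read 17.9 and 5.96 in Control, 30.2, 27.6 and 30.1 in the EC KO libraries, 23.9, 9.71 and 9.0 in the CM KO libraries and 2.55, 4.26 and 3.34 in the Total KO libraries. The EC KO libraries were the 3 highest of 11 and the Total KO libraries the 3 lowest. Knstrn, the kinetochore protein kinastrin (chr2:118814003-118853957, plus strand), read 13.2 and 14.2 in Control, 48.3, 39.3 and 38.0 in the EC KO libraries, 34.7, 16.8 and 17.2 in the CM KO libraries and 12.7, 4.26 and 6.67 in the Total KO libraries and showed the same 3 EC KO libraries at the top. Against CM KO, Total KO differed by -1.68 ± 0.47 for Hmmr (limma, adjusted p = 0.0289) and by -1.46 ± 0.39 for Knstrn (limma, adjusted p = 0.0247), and neither call held without CM KO replicate 1. Exons of Nek2, Knstrn and Ckap2l each overlap an antisense gene, by 298, 123 and 181 bases.

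Kif11 encodes the motor that pushes spindle poles apart (chr19:37376403-37421859, plus strand), and it read 23.3 and 24.6 in Control, 54.4, 18.4 and 25.6 in the EC KO libraries, 60.2, 34.3 and 31.1 in the CM KO libraries and 8.91, 17.9 and 14.2 in the Total KO libraries. Here CM KO, not EC KO, held most of the high values, and Total KO differed from it by -1.54 ± 0.40 (limma, adjusted p = 0.0223). Tpx2, a factor of spindle assembly, averaged 19.5 ± 3.26 in Control, 35.8 ± 3.76 in EC KO hearts, 32.9 ± 21.4 in CM KO hearts and 12.8 ± 4.08 in Total KO hearts. Cenpe, the kinetochore motor, averaged 12.6 ± 3.06 in Control, 17.9 ± 7.80 in EC KO hearts, 17.8 ± 9.47 in CM KO hearts and 7.19 ± 1.91 in Total KO hearts, with the Total KO libraries below all others for Cenpe. Cenpf, a large kinetochore protein, was the exception among the mitotic members, with 393 and 205 in Control, 224, 198 and 187 in the EC KO libraries, 104, 172 and 186 in the CM KO libraries and 281, 125 and 179 in the Total KO libraries normalized counts. Control replicate 1 was the highest of 11 and CM KO replicate 1 the lowest for Cenpf alone among the 36 tested members, and no comparison called it by limma.

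Among the cytokinesis members, Iqgap3 encodes a scaffold protein of dividing cells (chr3:88081971-88121048, plus strand). Iqgap3 read 34.2 and 29.1 in Control, 42.3, 71.1 and 81.3 in the EC KO libraries, 74.1, 40.1 and 36.8 in the CM KO libraries and 11.5, 14.5 and 10.8 in the Total KO libraries normalized counts. The 3 Total KO values were the lowest of 11 and within 4 normalized counts of each other, and all EC KO and CM KO values were above both Control values. The log2 difference was -2.27 ± 0.31 from EC KO (limma, adjusted p = 0.0270) and -1.89 ± 0.31 from CM KO (limma, adjusted p = 0.00407). Prc1, which bundles the microtubules of the midzone (chr7:80294450-80316259, plus strand), read 41.2 and 29.1 in Control, 54.4, 70.2 and 63.7 in the EC KO libraries, 87.9, 27.2 and 33.5 in the CM KO libraries and 19.1, 16.2 and 15.8 in the Total KO libraries and differed from CM KO by -1.30 ± 0.36 (limma, adjusted p = 0.0282). Prc1 shares 911 exon bases with Rccd1 on the other strand.

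Anln, the anillin of the contractile ring, read 63.0 and 52.2 in Control, 54.4, 85.3 and 53.9 in the EC KO libraries, 102, 33.7 and 39.3 in the CM KO libraries and 19.1, 30.7 and 20.0 in the Total KO libraries, with all Total KO values below the others and a difference from CM KO that just missed the threshold (-1.14 ± 0.37, limma, adjusted p = 0.0523). Kif23, a midzone motor, averaged 19.1 ± 5.94 in Control, 26.7 ± 13.6 in EC KO hearts, 24.3 ± 21.4 in CM KO hearts and 8.34 ± 6.83 in Total KO hearts, and its Total KO replicate 2 at 16.2 lay among the values of the other groups. Kif20a, another motor of the midzone, averaged 41.6 ± 8.22 in Control, 46.0 ± 8.96 in EC KO hearts, 46.8 ± 18.5 in CM KO hearts and 33.0 ± 10.8 in Total KO hearts, and its exons share 1271 bases with Cdc23 on the other strand.

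**Figure D4:**
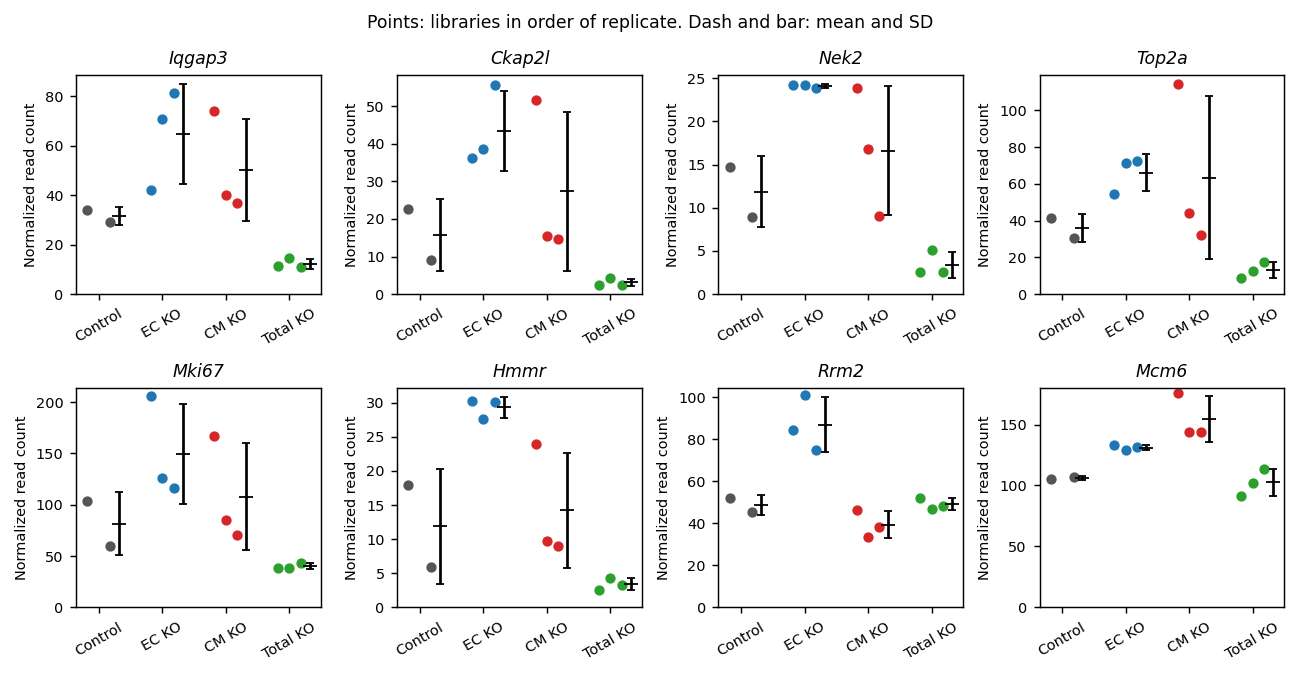
Normalized read counts of 8 members in every library, with the mean and SD of each group (n = 2 for Control, 3 for each knockout group). For Iqgap3, Ckap2l, Nek2, Top2a, Mki67 and Hmmr the 3 Total KO points lie below all others, whereas for Rrm2 the EC KO points stand above the rest and for Mcm6 the CM KO points do.

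Per kilobase of exon the members differed widely in level within Control. Pcna had 80.7 normalized counts per kilobase, Mcm4 42.7 and Cdc20 12.7, against 3.98 for Top2a, 2.78 for Iqgap3 and 0.184 for Ccnb1. A level per kilobase is not a number of reads, and Top2a, with long exons, held 53 and 41 reads in the Control libraries. Several mitotic members rested on few reads in single libraries. The number of members under 3 reads was 6 of 40 in EC KO replicate 1 and 6 in Total KO replicate 1, and at most 2 in any other library.

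Other genes of the cycle were looked at in 4 lists. In a list of 59 further mitotic genes, 32 were tested, and 8 were called lower and 1 higher in Total KO against CM KO, with a median of -0.52 on the log2 scale. Over all genes 8.20% were called lower and 8.20% higher there. The sum of the 59 did not repeat the order of the members' sum, at 92.4%, 99.75% and 84.0% of Control in EC KO, CM KO and Total KO. No EC KO sum was above a Control sum, and Total KO replicate 1 (3567) was above Control replicate 1 (3446). A sum is weighted to the highest genes. Gene by gene, 24 of the 32 tested were higher in EC KO than in Control (median log2 difference 0.40). In Total KO 24 were lower than in Control (median -0.29) and 27 lower than in EC KO (median -0.53). Among the 8 called lower in Total KO than in CM KO, the lowest p belonged to the chromokinesin genes Kif22 (-1.81 ± 0.39, limma, adjusted p = 0.0107) and Kif4 (-2.11 ± 0.51, limma, adjusted p = 0.0163). Cdca3 and Incenp followed. Kif4 read 14.8 and 11.9 in Control, 36.3, 31.8 and 19.5 in the EC KO libraries, 35.5, 13.6 and 17.2 in the CM KO libraries and 1.27, 5.97 and 6.67 in the Total KO libraries normalized counts. The gene that was higher, Spc24 of the kinetochore, read 66.8 and 47.0 in Control, 84.6, 97.0 and 80.5 in the EC KO libraries, 19.3, 31.1 and 35.2 in the CM KO libraries and 81.5, 95.5 and 84.2 in the Total KO libraries, so that its CM KO libraries were the 3 lowest (1.62 ± 0.23, limma, adjusted p = 0.00186). Spc24 and Sgol2 were also called lower in CM KO than in Control (-0.99 ± 0.26, limma, adjusted p = 0.0432, and -0.76 ± 0.16, limma, adjusted p = 0.0219), and both were called higher in EC KO than in CM KO. Against EC KO, 0 of the 32 were called in Total KO by limma and 17 had an unadjusted p under 0.05, beside 10.4% of all genes. Kif4 and Ckap2 had the lowest p there (limma, adjusted p = 0.116 and 0.121). For EC KO and Total KO against Control none was called by limma, with Spc25 and Cdca3, and Kif4 and Kif22, of lowest p. There 7 and 6 had an unadjusted p under 0.05, beside 10.5% and 8.11% of all genes.

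Of 38 further DNA replication genes 29 were tested, and their medians stayed between -0.084 and 0.026 on the log2 scale in the 6 comparisons of 2 groups. Gins1, of the helicase complex, was called lower in CM KO than in Control (-1.18 ± 0.30, limma, adjusted p = 0.0427), and Gins1 and Pole were called higher in EC KO and in Total KO than in CM KO. Mcm8 was called lower with EC KO than with CM KO (-0.43 ± 0.14, limma, adjusted p = 0.0432). Neither EC KO nor Total KO gave a call against Control, nor did the comparison of these 2 groups, by limma. In these 3 comparisons 1, 0 and 0 genes had an unadjusted p under 0.05, beside 10.5%, 8.11% and 10.4% of all genes. Uhrf1 and Rfc3 had the lowest p in the first of these and Pola2 and Prim2 in the second.

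Among 24 tested genes of G1 cyclins, their kinases and E2F factors, Myc, a transcription factor of growth and cycle entry, was called lower in EC KO than in Control (-0.97 ± 0.16, limma, adjusted p = 0.0342). Myc read 162 and 171 in Control, 90.6, 75.3 and 89.3 in the EC KO libraries, 209, 152 and 164 in the CM KO libraries and 134, 144 and 157 in the Total KO libraries normalized counts, with the EC KO libraries the 3 lowest. Ccnd2 was called higher in CM KO than in Control (0.65 ± 0.16, limma, adjusted p = 0.0350). Ccnd1 and Cdk6, a D cyclin and its kinase, were called lower with Total KO than with CM KO (-0.58 ± 0.12, limma, adjusted p = 0.00970, and -0.98 ± 0.22, limma, adjusted p = 0.0118), and E2f6 was called higher. They were also the 2 genes of lowest p against Control (limma, adjusted p = 0.165 and 0.0927). Between EC KO and CM KO, Myc and Cdk6 were called lower and Tfdp2 and E2f6 higher in EC KO, and between Total KO and EC KO the lowest p were those of Myc and Tfdp1, neither called.

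Of 19 tested inhibitors of the cycle, Cdkn1a, which encodes the CDK inhibitor p21, read 1440.2 and 1270.4 in Control, 3438, 2831 and 3107 in the EC KO libraries, 2226, 1392 and 1160.5 in the CM KO libraries and 1296, 1241 and 638 in the Total KO libraries normalized counts. All 3 EC KO libraries were above the other 8, and CM KO replicate 1 came next. The log2 difference of EC KO was 1.20 ± 0.29 from Control (limma, adjusted p = 0.127) and 1.02 ± 0.26 from CM KO (limma, adjusted p = 0.0174), and that of Total KO from EC KO was -1.63 ± 0.26 (limma, adjusted p = 0.0619). Thus in EC KO both the mitotic members and this inhibitor had their higher values. Also called between EC KO and CM KO were Gadd45b and Meis1, lower in EC KO, and Rbl2 and Tob1, higher. Between Total KO and CM KO, Trp53 (-0.59 ± 0.14, limma, adjusted p = 0.0153) and Gadd45b were called lower in Total KO and Rbl2 higher. Against Control, no inhibitor was called by limma. The lowest p were those of Cdkn1a and Tob1 in EC KO, Rbl2 and Cdkn2d in CM KO, and Tob1 and Gadd45a in Total KO. An unadjusted p under 0.05 was reached by 4, 2 and 3 of the 19 in EC KO, CM KO and Total KO, beside 10.5%, 21.0% and 8.11% of all genes. Wee1 followed Cdkn1a between Total KO and EC KO.

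Markers of the cell types that a heart holds were read beside the members, and their part in the members' differences was not tested. The 13 macrophage and monocyte markers in the table summed to 4915 to 5303 normalized counts in Control, 4399 to 5113 in EC KO, 9116 to 17061 in CM KO and 4609 to 6537 in Total KO. The 12 fibroblast markers summed to 20152 to 21071, 16551 to 19250, 33324 to 99657 and 17497 to 22315 in the same order. In both sums CM KO replicate 1, the library in which most members were highest of its group, was the highest of the 11. Between CM KO and Control 9 of 13 macrophage and 7 of 12 fibroblast markers were called higher, beside 3.29% of all genes. Between Total KO and CM KO 12 and 11 of them were called lower, beside 8.20% of all genes. Cd68 averaged 103 ± 26.6 in Control, 134 ± 13.5 in EC KO hearts, 299 ± 92.5 in CM KO hearts and 144 ± 35.1 in Total KO hearts, and Col1a1 762 ± 264 in Control, 533 ± 64.9 in EC KO hearts, 2941 ± 1945 in CM KO hearts and 667 ± 61.5 in Total KO hearts.

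EC KO and Total KO had 0 of these 25 markers called against Control or against each other by limma. None had an unadjusted p under 0.05, beside 10.5%, 8.11% and 10.4% of all genes in the same order. The 12 endothelial markers summed to 20747 and 21519 in Control, 23482 to 26123 in EC KO, 18508 to 19127 in CM KO and 20344 to 20594 in Total KO. The 3 EC KO libraries held the highest endothelial sums, at 116% of Control on average, while Total KO stood at 97.0%. CM KO replicate 1, with the highest mitotic sum of the 11 libraries (1470), had an endothelial sum of 19127, below both Control libraries. Between EC KO and Control 0 endothelial markers were called by limma and 6 had an unadjusted p under 0.05, beside 10.5% of all genes. In EC KO 8 were called higher than in CM KO, beside 8.72% of all genes. Between Total KO and EC KO 0 were called by limma. There 11 of the 12 were lower in Total KO and 7 had an unadjusted p under 0.05, beside 10.4% of all genes. Pecam1 averaged 3382 ± 284 in Control, 4218 ± 291 in EC KO hearts, 2967 ± 52.3 in CM KO hearts and 3185 ± 191 in Total KO hearts, and Cdh5 4016 ± 512 in Control, 4801 ± 396 in EC KO hearts, 3579 ± 218 in CM KO hearts and 3767 ± 198 in Total KO hearts. The part of the endothelial markers in the members' differences was not tested.

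The remaining markers are given mainly by their sums, in which opposite differences can cancel. Markers of pericytes and smooth muscle summed to 14660 to 17104 in Control, 15623 to 17051 in EC KO, 16437 to 17203 in CM KO and 13688 to 14320 in Total KO, and Pdgfrb averaged from 1914 in CM KO to 2396 in EC KO. The Total KO sums were the 3 lowest of 11, at 88.8% of Control on average. Of these 9 markers, 3 were called higher and 2 lower in EC KO than in CM KO. Of 12 cardiomyocyte markers, 3 were called higher and 3 lower there, beside 8.72% and 10.4% of all genes. The part of these markers in the members' differences was not tested. Cardiomyocyte markers averaged 109%, 92.6% and 108% of Control in EC KO, CM KO and Total KO. Lymphocyte markers summed to 36.7 to 74.4 normalized counts over all libraries, neutrophil markers to 18.1 to 75.4, and erythroid markers to 0 to 116, with Hba-a1 listed at 0 in every library. Mpo and Elane, made by immature blood cells, were at 0 in most libraries and never above 0.884.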

How the data were processed

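Total RNA of mouse hearts (400 ng per library) was sequenced after removal of ribosomal RNA with a stranded kit, per the labels' protocols, in 11 libraries of 4 groups. Per the submitters' processing notes, TopHat2, HTSeq 0.8.0 and DESeq2 (given as version 3.5) were used with the mm10 build, and counting mode, strand setting and annotation are not given in the sources used here. The deposited signal values are read counts per gene that the authors divided by 1 factor per library. All 257620 values lay within 0.05 of a whole number of reads (largest deviation 0.000357), so reads were recovered for the counting intervals, edgeR and DESeq2. All columns of the table were used.

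Genes with a mean of at least 10 were taken as log2(value + 1), and limma 3.58.1 (R 4.3.3) fitted the 4 groups together, with a trended prior for the variance. Benjamini-Hochberg adjustment ran over all 12976 genes of a comparison, and a call is an adjusted p under 0.05. A log2 difference on this scale understates the change of low genes. Depth and counting intervals stand in the report. Gene positions are from GENCODE M21 and promoters from RefSeq, both on GRCm38.

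The members and the lists of other genes were chosen with earlier results of these data known, and counts of groups that do not overlap were chosen after the values were seen. All 40 members are described, with a log2 difference for each that passed or, where fewer than 3 passed, for the 3 of lowest p, and for some with an adjusted p near the threshold. Of each other list of cell cycle genes, at most 5 that passed or else the 2 of lowest p are named, except where a result is not reported here. The alternatives tried were other pseudocounts (0.5 and 5), other filters (none, or a mean of 50), rescaling (by the upper quartile, by quantiles or by the library total), a weight per library, the 2 groups compared alone, edgeR 4.0.16, DESeq2 1.42.0, each library left out in turn, and replicates 1 of the 3 knockout groups left out together. Replicates are numbered in accession order, and every sample entered the fit.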

Additional observations from a re-analysis of the deposited data

How the results depend on the processing

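No paired analysis was possible because the labels tie no sample of 1 group to one of another group, and no replicate block could be fitted. For single members, 69 differences were followed. They were chosen in the main fit for an unadjusted p under 0.05 or for being among the 3 of lowest p in a comparison. No sign reversed over 23 alternatives, but differences chosen in this way from the same libraries could hardly reverse. Of the values, 1400 kept their side of the threshold, 77 lost the call and 58 gained it. In CM KO minus Control, where 0 members were called, scaling to library totals gave 1, edgeR 1 and DESeq2 2. In EC KO minus CM KO, where 1 was called, a weight per library gave 9 and leaving out the 3 first knockout replicates 3. The F test, with 13, gave 3 at a filter of 50, which tests 11 members, and 20 with weights. In Total KO minus CM KO, with 14, the filter of 50 gave 2, the 2 groups alone 9, and leaving out the 3 first knockout replicates 4. In Total KO minus EC KO, with 2, a pseudocount of 5 gave 1, no filter 0 (26 at an unadjusted p under 0.05), the filter of 50 gave 0, weights 13, the 2 groups alone 6, edgeR 1, DESeq2 10 and leaving out the 3 first replicates 5. With each library left out in turn, the counts ranged from 1 to 2 for EC KO minus CM KO, from 8 to 14 for the F test, from 4 to 15 for Total KO minus CM KO and from 0 to 9 for Total KO minus EC KO. For EC KO minus Control and for Total KO minus Control, each of these alternatives gave 0, as limma did with all libraries (8 and 9 at an unadjusted p under 0.05).

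Of the recomputed medians, 130 stayed within the spread of the replicates and 8 moved by more, none past 0: CM KO minus Control to 0.028 without CM KO replicate 1 and without the 3 first replicates, Total KO minus CM KO to -0.13 (filter of 50), -0.71 (weights), -0.55 (without the 3 first replicates) and -0.66 (without CM KO replicate 1), Total KO minus Control to -0.031 and Total KO minus EC KO to -0.24 (both at the filter of 50, which keeps mostly replication members). The cause of the other changes was not tested. A part of the 130 could not move. Leaving out a library of neither group, or fitting the 2 groups alone, leaves a difference of group means as it was. Scaling to library totals shifts the median of all genes by -0.12 in EC KO minus CM KO and by -0.14 in Total KO minus CM KO, and no member call changed direction with it. Depth limits the mitotic members most, since EC KO replicate 1 had 180 reads over 29 of them.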
